A study of Mus musculus with 6 samples.

Results

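Oxidative phosphorylation subunits are the nuclear-encoded proteins of the respiratory chain complexes I to IV and of ATP synthase, called complex V. They were taken here as every row of the deposited expression table whose gene symbol starts with Nduf, Uqcr, Cox followed by 4 to 8, or Atp5, together with Sdha, Sdhb, Sdhc and Sdhd. This gave 93 of 18824 rows: 46 for complex I, 4 for complex II, 8 for complex III, 18 for complex IV and 17 for complex V. Of the 46 complex I rows, 38 are subunits and 8 are assembly factors named Ndufaf. Of the 18 complex IV rows, 11 are subunits made in most tissues and 7 are tissue-restricted isoforms or relatives. The same pattern also brings in Ndufa4, which is named after complex I but is a subunit of complex IV and was counted there.

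RNA was measured by RNA-seq in 6 libraries of whole skin from C57BL/6j mice treated with MC903, an analogue of vitamin D used on the skin of mice to model atopic dermatitis. The library titles form a CCR3 group and a VEH (vehicle) group, each with replicates 1, 2 and 4. The submitters' descriptions disagree on the compound of the CCR3 group: SB328437, which blocks the chemokine receptor CCR3, appears in the series text, and SC144, which inhibits the receptor subunit gp130, in the sample labels. The groups are therefore called CCR3 and VEH, and both are taken to carry the MC903 treatment that the series title gives; skin without MC903 is not analysed here. Age, dose and time of treatment are not given in the labels used here, and none says that the replicates came from separate animals, so the p-values below measure the spread between these samples, which may be technical.

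Values are FPKM, in which fragments are scaled to transcript length and to the mapped fragments of the library. FPKM summed to between 517764 and 553305 per library, and between 12919 and 13054 genes reached 1 FPKM. Depth cannot be given, because no counts accompany the values. Markers of keratinocytes, the main epidermal cell type, and of fibroblasts, the collagen-making cells of the dermis, were abundant in every library, with summed levels of at least 6212.6 FPKM for 10 keratinocyte genes and at least 3411.5 FPKM for 8 fibroblast genes. Markers of skeletal muscle, adipocytes and leukocytes were present as well, and their levels are given beside the results they move with. In bulk skin, fewer cells of a type and less RNA per cell cannot be told apart.

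Oxidative phosphorylation passes electrons from NADH through complex I, and from succinate through complex II, to ubiquinone, complex III, cytochrome c and complex IV, where oxygen is reduced to water. Complexes I, III and IV pump protons across the inner mitochondrial membrane, and complex V uses the return flow to make ATP. Complex II pumps no protons and is also the succinate dehydrogenase of the citric acid cycle; all its subunits are encoded in the nucleus, whereas the other complexes each hold subunits made from mitochondrial DNA. Of the 13 mitochondrially encoded subunits, 0 had a row in the table, and they are not analysed here. In skin, mitochondrial respiration is known to take part in keratinocyte differentiation and hair follicle growth, and it is the main energy source of muscle and brown fat.

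No member passed the test, and most members had a slightly lower mean in CCR3 than in VEH. Of the 93 members, 92 reached 1 FPKM in at least 3 libraries and were tested with limma on log2(FPKM + 1), with Benjamini-Hochberg adjustment over all 13063 genes tested. With an adjusted p under 0.05, 0 members were called lower and 0 higher in CCR3. Over all genes tested, 310 genes (2.37%) were called lower and 178 genes (1.36%) higher, which is 3.74% in either direction. That split depended on scaling, with 261 lower and 230 higher after median-centring and 173 lower and 158 higher after scaling each library to the same sum. At an unadjusted p under 0.05, limma placed 10 members (10.9%) lower and 0 higher, beside 15.1% and 8.03% of all genes tested. The smallest adjusted p among the members was 0.0682, for Cox6b2.

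Of the 92 tested members, 82 (89.1%) had a negative log2 fold change, beside 59.8% of all genes tested. The median log2 fold change was -0.08 for the members (-5.69%) and -0.04 for all genes tested. In 19 members (20.7%) all 3 CCR3 libraries lay below all 3 VEH libraries, and in 0 members did all lie above; over all genes tested these shares were 18.3% and 10.4%. After median-centring, 12 members were apart in the lower direction, beside 13.8% of all genes, and after scaling to the same sum 14 were lower and 1 higher, beside 13.3% and 12.7%. Of these counts the share of negative signs stood furthest from its background, while the shares of members called or apart were near or below theirs.

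The intervals of the test are on the log2(FPKM + 1) scale, so they do not bound the FPKM ratio of low members. On that scale the 95% interval of the fold change lay within 2-fold in either direction for all 92 tested members and within 1.5-fold for 88, the other 4 being isoforms or relatives of complex IV. The lowest bound was -0.68 on the log2 scale, for Cox4i2, and the highest was 0.81, for Cox7a1. The median standard error of a member's log2 fold change was 0.080. In simulated data with 3 libraries a group, limma called 2% of the genes given a log2 change of 0.2 and 77.6% of those given 0.5, and the members' median difference was smaller than either.

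**Figure D1:**
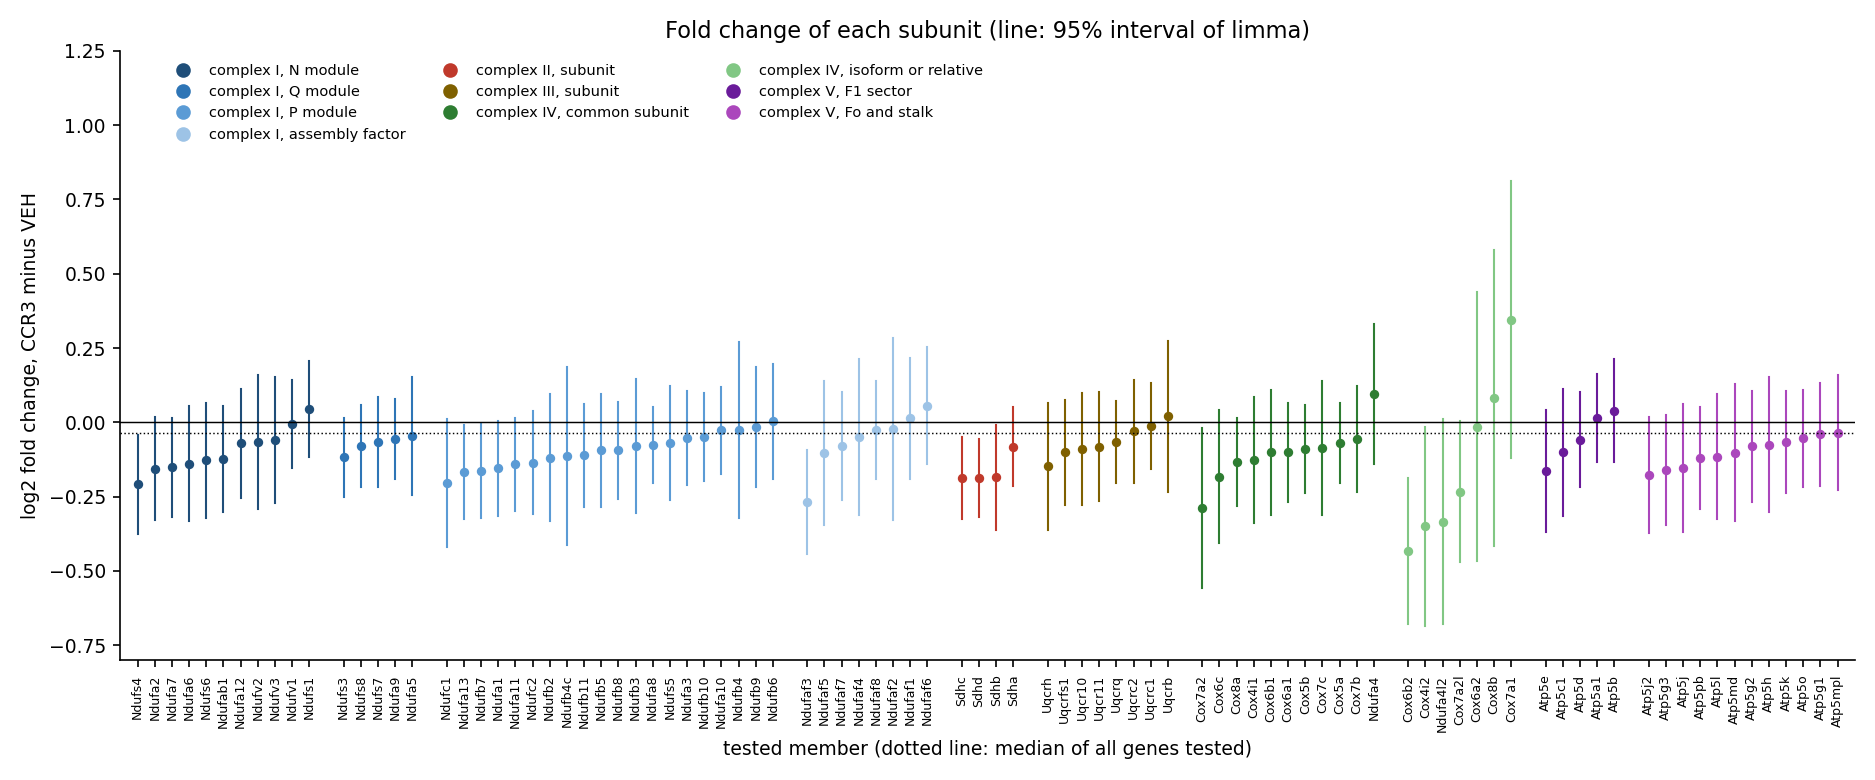
Log2 fold change of CCR3 minus VEH on log2(FPKM + 1) for 91 of the 92 tested members, grouped by complex, with the 95% interval of limma as a line and the median of all genes tested as a dotted line. Points of every complex lie mostly just below 0, and the widest intervals belong to the complex IV isoforms.

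The members span a wide range of levels, and on the FPKM scale, which is per length, 40 of them had a mean of at least 100 FPKM over the 6 libraries and 11 were under 10 FPKM. The highest was Ndufa4 with 523 FPKM, followed by Atp5b with 459 FPKM and Cox4i1 with 451 FPKM. By complex, the median FPKM of the structural subunits was 65.6 for complex I, 75.8 for complex II, 104 for complex III, 210.3 for complex IV and 180.2 for complex V. The 8 Ndufaf assembly factors, which help to build complex I without being part of it, had a median of 9.04 FPKM. The 7 isoforms and relatives of complex IV had a median of 4.88 FPKM. The summed level of all members took 1.85% to 2.05% of a library's FPKM.

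By complex, the median log2 fold change was -0.08 for complex I, -0.19 for complex II, -0.07 for complex III, -0.10 for complex IV and -0.08 for complex V, counting structural subunits only and given without a test. Complex II, with 4 genes, was the lowest of the 5 in every alternative setting run, with medians from -0.20 to -0.15. The genes described from here on were named by rule, except those said to be chosen after their values were seen.

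Complex II is succinate dehydrogenase. Sdha carries the flavin that oxidises succinate, Sdhb holds the iron-sulfur clusters, and Sdhc and Sdhd anchor the enzyme in the membrane and bind ubiquinone. Sdhd (Entrez 66925) measured 68.9, 67.2 and 66.4 FPKM in CCR3 replicates 1, 2 and 4 and 76.3, 75.7 and 79.0 FPKM in the VEH replicates. Sdhc (Entrez 66052) measured 76.7, 72.7 and 73.3 FPKM in CCR3 and 87.0, 81.8 and 85.2 FPKM in VEH. For both membrane anchors, every CCR3 library lay below every VEH library, with a gap wider than the SD of either group. Sdhb (Entrez 67680) measured 78.7, 69.5 and 81.3 FPKM in CCR3 and 85.9, 84.1 and 90.9 FPKM in VEH. Sdha (Entrez 66945) measured 61.2, 59.8 and 63.6 FPKM in CCR3 and 64.7, 64.2 and 66.4 FPKM in VEH. The groups did not overlap for these genes either, but CCR3 replicate 4 came close to the lowest VEH library in both.

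The log2 fold change was -0.19 ± 0.057 (SE) for Sdhd, -0.19 ± 0.060 for Sdhc, -0.19 ± 0.077 for Sdhb and -0.08 ± 0.058 for Sdha. In limma with adjustment over all genes tested, the adjusted p was 0.110 for Sdhd, 0.122 for Sdhc, 0.197 for Sdhb and 0.425 for Sdha, so 0 of the 4 passed. The 95% intervals ran from -0.32 to -0.06 for Sdhd and from -0.21 to 0.05 for Sdha. The groups of all 4 genes were apart as deposited and after median-centring, beside 18.3% and 13.8% of all genes tested in the lower direction. After scaling to the same sum those of 3, Sdhb, Sdhc and Sdhd, stayed apart, beside 13.3%. Summed over the 4 genes, the level was 279.7 ± 9.2 FPKM (SD, n = 3) in CCR3 and 313.7 ± 7.9 FPKM in VEH.

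**Figure D2:**
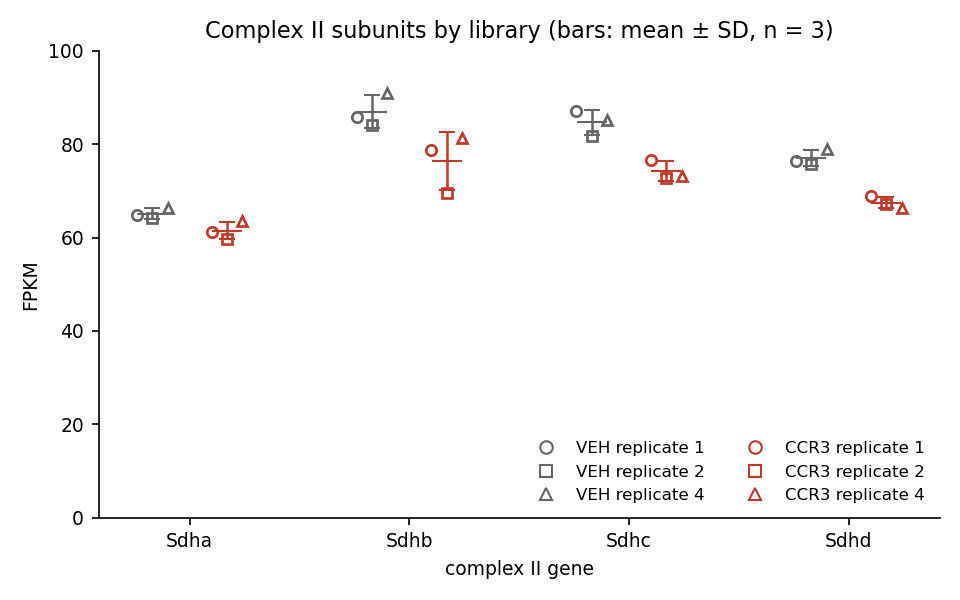
FPKM of the 4 complex II genes in each library, with the mean and SD of 3 libraries as bars. The 3 CCR3 points lie below the 3 VEH points for each gene, by the widest margin for Sdhc and Sdhd.

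Many promoters of nuclear respiratory genes carry sites for NRF-1 and for the ETS-family factor GABP, also called NRF-2, so the promoters of Sdha, Sdhb and Sdhd are shown, from the complex whose median lay lowest; that of Sdhc is not shown. The 250 bases before the annotated start are printed 5′ to 3′ on the gene's strand from RefSeq, build GRCm38.p6, with matches to the NRF-1 motif (GCGC, any base, then TGCGC) or the ETS motif CCGGAAG on either strand in capitals.
Sdha, chr13:74350241-74350490, minus strand: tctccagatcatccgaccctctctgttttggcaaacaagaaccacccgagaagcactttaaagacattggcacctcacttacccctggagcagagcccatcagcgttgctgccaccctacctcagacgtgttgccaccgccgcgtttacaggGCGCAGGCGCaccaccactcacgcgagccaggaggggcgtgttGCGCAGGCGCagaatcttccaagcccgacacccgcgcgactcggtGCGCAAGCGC
Sdhb, chr4:140961021-140961270, plus strand: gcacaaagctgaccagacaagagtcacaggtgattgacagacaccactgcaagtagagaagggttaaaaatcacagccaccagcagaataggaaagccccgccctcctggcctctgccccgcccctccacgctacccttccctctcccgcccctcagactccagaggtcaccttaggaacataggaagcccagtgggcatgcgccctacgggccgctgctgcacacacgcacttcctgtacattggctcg
Sdhd, chr9:50603850-50604099, minus strand: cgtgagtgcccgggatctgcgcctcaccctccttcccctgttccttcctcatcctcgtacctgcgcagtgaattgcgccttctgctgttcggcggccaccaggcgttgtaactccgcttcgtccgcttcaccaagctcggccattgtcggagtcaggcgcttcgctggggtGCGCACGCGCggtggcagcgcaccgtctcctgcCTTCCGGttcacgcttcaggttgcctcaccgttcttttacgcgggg

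The Sdha promoter held 3 NRF-1 matches, the first base of each at -98, -55 and -10 from the start. The Sdhd promoter held 1 NRF-1 match at -79 and 1 ETS match at -46. The printed part of the Sdhb promoter held neither; it held 3 matches to the GC box GGGCGG, at -152, -132 and -104, and an ETS match began at 6 bases after the start. A match is a description of the letters and not of binding.

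Promoters of 300 bases, from 250 before to 50 after the start, were matched for 76 of the 93 members. Among these, 25.0% held the NRF-1 motif, beside 10.72% of the 10443 tested genes matched and 5.19% of all 27025 promoters. The ETS motif was in 25.0% of the members' promoters, beside 19.29% and 9.93%. The YY1 motif AANATGGCG was in 14.47%, beside 5.6% and 2.76%. At least 1 of these 3 motifs was in 42 of the 76 promoters (55.26%), beside 31.08% of the tested genes. The GC box was less frequent in the members, at 44.74% beside 66.42% of tested genes, while CCAAT (43.42% beside 42.61%) and TATAAA (9.21% beside 9.72%) were at about the background share. The motifs were searched on both strands, and matches of different motifs were counted separately where they overlapped.

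A neighbouring gene on the opposite strand started within 500 bases for 22 of the 76 members (28.95%), beside 16.4% of tested genes. Partners named here were chosen after their values were seen. Sdhd shares its promoter region with Timm8b, an import chaperone of the mitochondrial intermembrane space, at 52 bases between the starts; the log2 fold change of Timm8b was -0.27, with a limma adjusted p of 0.0869. Sdha lies 77 bases from Ccdc127, with a log2 fold change of -0.02 and a limma adjusted p of 0.894. Atp5j lies 148 bases from Gabpa, which encodes the DNA-binding subunit of GABP. The genes of each pair run away from each other, so from these annotated starts their transcripts do not overlap. No strand information is given for the reads, so where actual starts differ, overlapping ends could not be told apart.

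Complex I, NADH dehydrogenase, is built from an N module that takes electrons from NADH, a Q module that hands them to ubiquinone and a P module in the membrane that pumps protons. Of its 38 structural rows, 37 were tested, and 35 had a negative log2 fold change, with a range from -0.21 to 0.05. The median was -0.12 for the 11 N-module genes, -0.06 for the 6 Q-module genes and -0.09 for the 20 tested P-module genes. The groups were apart in the lower direction for 9 of the 37 genes, 2 in the N module, 2 in the Q module and 5 in the P module, beside 18.3% of all genes tested.

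Ndufs4, a late-added subunit of the N module, had the smallest p in the complex. It measured 31.8, 33.3 and 31.5 FPKM in CCR3 and 36.7, 34.8 and 40.8 FPKM in VEH, so the groups were apart. Its log2 fold change was -0.21 ± 0.073 (limma adjusted p = 0.143). Ndufa13, a P-module subunit also known as GRIM-19, measured 48.9, 45.9 and 44.5 FPKM in CCR3 and 50.1, 50.9 and 55.8 FPKM in VEH (log2 fold change -0.17, limma adjusted p = 0.197). Its groups were narrowly apart, with CCR3 replicate 1 next to VEH replicate 1. Ndufc2, the most abundant complex I subunit per length, measured 157, 149.6 and 138 FPKM in CCR3 and 164, 153 and 170.4 FPKM in VEH, and its groups overlapped.

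Nuclear core subunits of complex I, which include those that carry the flavin and the iron-sulfur clusters, were chosen after their values were seen. The log2 fold change was -0.01 for Ndufv1, which binds NADH, -0.07 for Ndufv2, 0.05 for Ndufs1, -0.12 for Ndufs3, -0.07 for Ndufs7 and -0.08 for Ndufs8. The groups were apart for Ndufs3 and Ndufs8 among these. Among the tested structural subunits, isoforms left out, Ndufa11 had the lowest level, with 10.4 FPKM over the 6 libraries. Ndufb4 and its near-identical copies Ndufb4b and Ndufb4c are uncertain, since reads of 50 bases can be split between copies. Ndufb4b was listed at 0 in 5 libraries and at 0.83 FPKM in VEH replicate 2 and was not tested.

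The 8 complex I assembly factors had a median log2 fold change of -0.04, equal to that of all genes tested to 2 decimals. Ndufaf3, which works early in Q-module assembly, had the smallest p of them. It measured 4.64, 4.71 and 4.6 FPKM in CCR3 and 5.70, 5.40 and 6.35 FPKM in VEH (log2 fold change -0.27 ± 0.076, limma adjusted p = 0.0912). The other 7 overlapped between groups, with log2 fold changes from -0.10 to 0.06.

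Complex III, the cytochrome bc1 complex, passes electrons from ubiquinol to cytochrome c. Of its 8 genes taken by the rule, 7 had a negative log2 fold change, from -0.15 to 0.02, and the groups overlapped for all 8. Cyc1, which encodes the cytochrome c1 subunit, has a symbol outside the rule and was listed with the electron carriers. It measured 72.0, 73.9 and 70.9 FPKM in CCR3 and 75.1, 80.01 and 81.9 FPKM in VEH, with groups apart (log2 fold change -0.13, limma adjusted p = 0.260). Uqcrh, the hinge subunit, measured 207, 196 and 168 FPKM in CCR3 and 203, 205 and 224 FPKM in VEH (log2 fold change -0.15, limma adjusted p = 0.367). CCR3 replicate 1 lay above VEH replicates 1 and 2, and CCR3 replicate 4 was the lowest library. Uqcrfs1, the Rieske iron-sulfur protein, measured 74.8, 76.8 and 67.8 FPKM in CCR3 and 72.7, 81.02 and 81.8 FPKM in VEH. Uqcrq, a small subunit of the membrane part, measured 54.2, 55.8 and 52.5 FPKM in CCR3 and 54.9, 56.4 and 59.0 FPKM in VEH. The groups of both overlapped, since CCR3 replicates 1 and 2 of Uqcrfs1 and CCR3 replicate 2 of Uqcrq lay above VEH replicate 1, and the limma adjusted p-values were 0.451 and 0.534.

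Complex IV, cytochrome c oxidase, reduces oxygen. Of its 11 common subunits, 10 had a negative log2 fold change, and the exception was Ndufa4, at 0.10 ± 0.10. Ndufa4 measured 547, 595 and 480.5 FPKM in CCR3 and 489.5, 479 and 546 FPKM in VEH, with overlapping groups. Cox7a2, the common form of subunit 7a, had the smallest p of the 11. It measured 106, 145 and 125 FPKM in CCR3 and 144, 148 and 165 FPKM in VEH (log2 fold change -0.29 ± 0.12, limma adjusted p = 0.191). Here CCR3 replicate 1 was the lowest library, and CCR3 replicate 2 lay above VEH replicate 1. Cox8a, the common form of subunit 8, measured 185, 188 and 179.9 FPKM in CCR3 and 195, 202 and 210.0 FPKM in VEH, with groups apart (log2 fold change -0.13, limma adjusted p = 0.256). Cox4i1, the common form of subunit 4, measured 463, 416 and 413 FPKM in CCR3 and 453, 442 and 518 FPKM in VEH, with overlapping groups.

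The isoforms of complex IV replace a common subunit in particular tissues: Cox6a2, Cox7a1 and Cox8b in skeletal and heart muscle, the last 2 also in brown fat, Cox6b2 in testis and Cox4i2 in lung and under low oxygen. Cox6b2 had the smallest adjusted p of all members, at a level near the floor. It measured 0.80, 1.01 and 0.93 FPKM in CCR3 and 1.41, 1.96 and 1.41 FPKM in VEH, with a log2 fold change of -0.43 ± 0.11 (limma adjusted p = 0.0682). A pseudocount of 0.1 moved the log2 fold change to -0.73, and the ratio of the mean FPKM was 0.573. At this level the filter of 1 FPKM in 3 libraries was met mainly by the VEH libraries, so the direction is not independent of it. Cox4i2 measured 9.24, 5.81 and 7.84 FPKM in CCR3 and 8.95, 9.76 and 10.9 FPKM in VEH (log2 fold change -0.35 ± 0.14, limma adjusted p = 0.198). CCR3 replicate 1 lay within the VEH range. As a share of Cox4i1 and Cox4i2 together, Cox4i2 made up 1.73% ± 0.31 (SD, n = 3) in CCR3 and 2.05% ± 0.11 in VEH.

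The 3 muscle isoforms had overlapping groups and varied most within groups. Cox8b measured 2.57, 5.59 and 3.00 FPKM in CCR3 and 3.62, 2.71 and 3.63 FPKM in VEH. Cox6a2 measured 4.43, 6.23 and 3.85 FPKM in CCR3 and 5.44, 3.41 and 5.91 FPKM in VEH. Cox7a1 measured 3.14, 4.49 and 4.30 FPKM in CCR3 and 3.59, 1.79 and 3.59 FPKM in VEH (log2 fold change 0.35 ± 0.20, limma adjusted p = 0.338). For all 3 genes CCR3 replicate 2 was the highest library, and VEH replicate 2 was the lowest for Cox6a2 and Cox7a1. The summed level of the 20 skeletal muscle markers was likewise highest in CCR3 replicate 2, at 502 FPKM, and lowest in VEH replicate 2, at 174.9 FPKM, with 282 to 406 FPKM in the other libraries. Of these markers 0 were at 0 in all libraries, 17 were tested and 0 passed, with a median log2 fold change of 0.23; the part of muscle in the levels of these isoforms was not tested.

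Ndufa4l2, a relative of Ndufa4 induced by low oxygen, measured 34.5, 40.03 and 34.3 FPKM in CCR3 and 41.4, 59.5 and 39.2 FPKM in VEH. The groups overlapped, since CCR3 replicate 2 lay above VEH replicate 4, and the limma adjusted p was 0.225. Cox7a2l, counted with the isoforms and relatives of complex IV, measured 175, 159 and 157 FPKM in CCR3 and 193, 168 and 219 FPKM in VEH (log2 fold change -0.23, limma adjusted p = 0.222). Cox6a1 and Cox6b1, the common forms of their subunits, had log2 fold changes of -0.10 each.

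**Figure D3:**
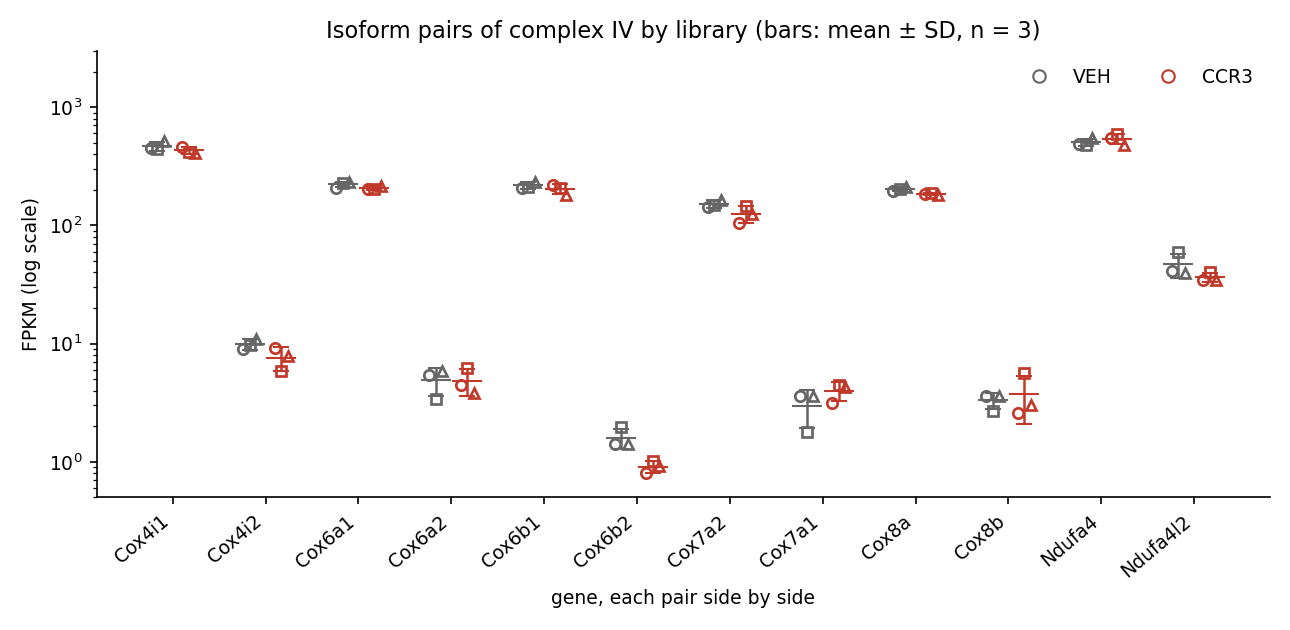
FPKM on a log axis for the common form and the restricted isoform or relative of 6 complex IV subunits, by library, with the mean and SD of 3 libraries as bars. Restricted forms lie far below the common ones in both groups, and only for Cox6b2 are the CCR3 and VEH points apart among the restricted forms.

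Complex V, ATP synthase, joins a catalytic F1 sector to a membrane Fo sector with its stalks. Of the 5 F1 genes 3 had a negative log2 fold change, with a median of -0.06. Atp5b, which encodes the catalytic beta subunit, measured 468, 488 and 440.3 FPKM in CCR3 and 445, 466 and 448 FPKM in VEH (log2 fold change 0.04, 95% interval -0.14 to 0.21). Atp5e, the small epsilon subunit, measured 170.1, 157 and 177 FPKM in CCR3 and 179, 176 and 210.4 FPKM in VEH (log2 fold change -0.16, limma adjusted p = 0.307). Chosen after its values were seen, Atp5a1, the alpha subunit, had a log2 fold change of 0.01.

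All 12 Fo and stalk genes had a negative log2 fold change, from -0.18 to -0.03, and none passed the test. Atp5j2, the f subunit of the Fo sector, had the smallest p of the complex. It measured 229, 229 and 207 FPKM in CCR3 and 243, 235 and 275 FPKM in VEH, with groups apart (log2 fold change -0.18, limma adjusted p = 0.255). The proton-carrying c ring is made from a single mature protein encoded by Atp5g1, Atp5g2 and Atp5g3. Atp5g3 measured 244, 258 and 277 FPKM in CCR3 and 269, 299.6 and 301 FPKM in VEH (log2 fold change -0.16, limma adjusted p = 0.274). The log2 fold change was -0.08 for Atp5g2 and -0.04 for Atp5g1. Of the 3 genes' summed level Atp5g3 made up 51.9% ± 3.2 (SD, n = 3) in CCR3 and 53.5% ± 1.3 in VEH, Atp5g2 30.7% ± 2.4 and 30.0% ± 1.3, and Atp5g1 17.4% ± 1.6 and 16.5% ± 0.16. These shares differed between groups by less than the SD of the CCR3 libraries. For Atp5g1 and Atp5g3 the difference was larger than the SD of the VEH libraries. The CCR3 SD of Atp5g1 came mainly from replicate 1, at 19.3%.

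The members moved together between libraries of the same group. VEH replicate 4 was the highest library for 63 of the 92 tested members (68.48%) and CCR3 replicate 4 the lowest for 53 (57.61%); over all genes tested the shares of these libraries were 22.54% and 20.25%. The summed level of all members was 10406, 10316 and 9568 FPKM in CCR3 and 10393, 10475 and 11324 FPKM in VEH. Replicates 1 and 2 of both groups thus lay between 10316 and 10475 FPKM, with CCR3 replicate 4 below them and VEH replicate 4 above. The median log2 fold change of the members was -0.051 without VEH replicate 4 and -0.048 without CCR3 replicate 4, in place of -0.085 with all libraries. Median-centring gave -0.054 and scaling to the same sum -0.052, while the median of all genes tested was then -0.0069 and -0.0083.

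Complex II differed from this pattern in the libraries that carried it. As a median log2 difference from the VEH mean, its 4 genes stood at -0.14, -0.20 and -0.15 in CCR3 replicates 1, 2 and 4 and at -0.01, -0.04 and 0.03 in the VEH replicates. Every CCR3 library was thus below every VEH library. The same held narrowly for complex I, with -0.0528 in CCR3 replicate 1 and -0.0433 in VEH replicate 2, but not for complexes III, IV and V. Complex I stood at -0.05, -0.09 and -0.14 in CCR3 and -0.04, -0.04 and 0.08 in VEH, complex III at -0.06, 0.01 and -0.18 and at -0.05, 0.04 and 0.06, complex IV at -0.04, -0.06 and -0.17 and at -0.05, -0.04 and 0.10, and complex V at -0.03, -0.04 and -0.13 and at -0.05, -0.01 and 0.09. CCR3 replicate 1 and VEH replicate 1 were nearly level for complexes I, III, IV and V, while complex II was lower in the CCR3 library. The difference between complexes was not tested.

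**Figure D4:**
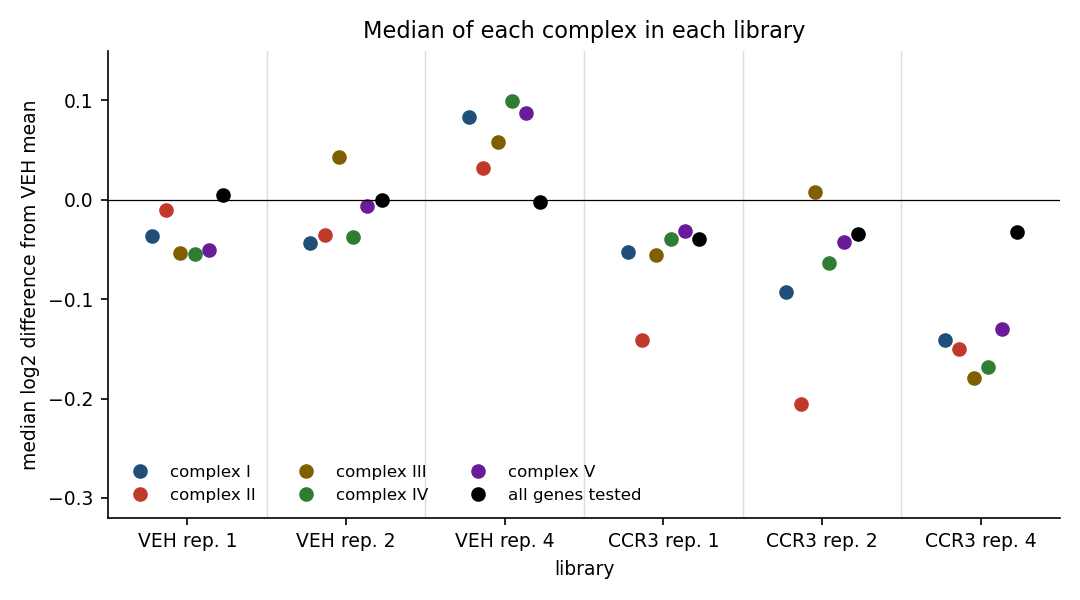
Median log2 difference from the VEH mean of the structural subunits of each complex and of all genes tested, by library. Complexes I and III to V are highest in VEH replicate 4 and lowest in CCR3 replicate 4, while complex II lies between -0.20 and -0.14 in all 3 CCR3 libraries.

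By annotation, most members have short transcripts. Length was taken as the median over all protein-coding transcripts that GENCODE M21 lists for a gene. It can differ from the length of the main transcript, so a gene can fall in another length class than its main transcript would. By this measure the median member had 683 bases, beside 2136 bases for all genes tested. Of 91 members with a length, 85 were under 1500 bases, beside 32.8% of genes tested. This comparison was chosen after the values were seen. Among genes of at least 10 FPKM, members under 600 bases had a median log2 fold change of -0.10, beside -0.06 for other genes of that length. From 600 to 900 bases both medians were -0.08, from 900 to 1500 bases they were -0.10 and -0.09, and from 1500 to 3000 bases both were -0.04. The 1714 other genes of 3000 bases or more had a median of 0.03. The members were thus lower than other genes under 600 bases and close to them in the other classes. In CCR3 replicate 4 they stood further down than other genes, at median log2 differences from the VEH mean of -0.18, -0.19 and -0.17 in the 3 classes under 1500 bases, beside -0.09 for other genes in each. The part of transcript length in the result was not tested. For complex II this median length ran from 815 bases for Sdhc to 1811 bases for Sdha.

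**Figure D5:**
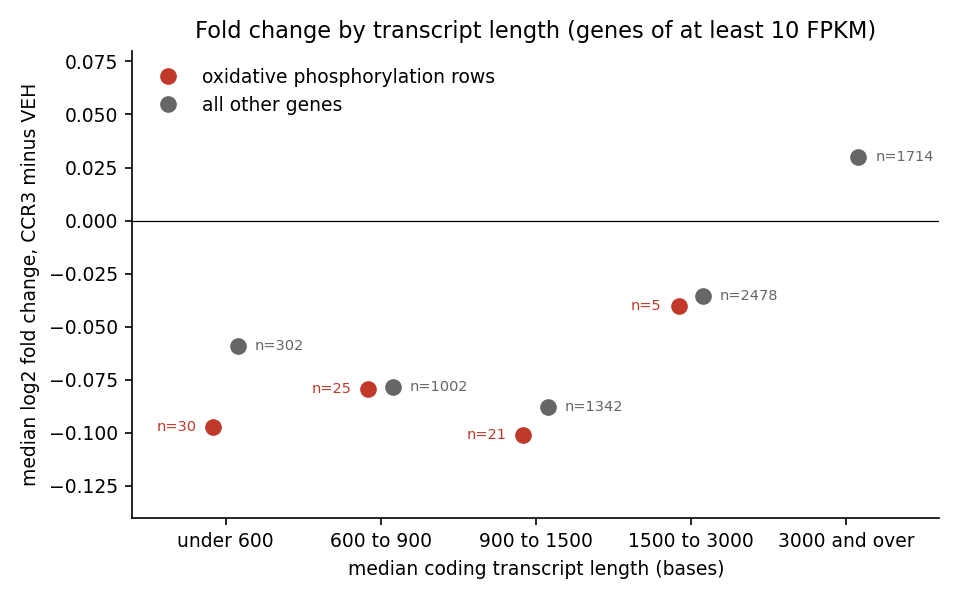
Median log2 fold change of CCR3 minus VEH by class of a gene's median annotated coding transcript length, for members and for all other genes of at least 10 FPKM. From 600 bases upward the points of the 2 sets lie close together, and only genes of 3000 bases or more have a median above 0.

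Genes that work with the respiratory chain were examined as lists. The 38 tested assembly factors outside the Nduf names had a median log2 fold change of -0.08, and 0 passed limma in either direction. An unadjusted p under 0.05 was reached by 6 that were lower and 0 that were higher, a share of lower genes near the 15.1% of all genes tested. Sdhaf4, an assembly factor that binds Sdha of complex II, measured 19.6, 17.5 and 17.0 FPKM in CCR3 and 22.6, 21.3 and 24.0 FPKM in VEH, with groups apart (log2 fold change -0.31 ± 0.076, limma adjusted p = 0.0652). Coa3, which works in complex IV assembly, had a log2 fold change of -0.20 and a limma adjusted p of 0.120.

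Of 22 electron carriers, ubiquinone enzymes and carriers of ADP and phosphate, 1 was lower and 0 higher. Etfb, the beta subunit of the flavoprotein that carries electrons from fatty acid oxidation to the respiratory chain, fell from 78.4 ± 3.8 FPKM (SD, n = 3) in VEH to 62.4 ± 1.9 FPKM in CCR3. It measured 60.3, 63.7 and 63.4 FPKM in CCR3 and 77.0, 75.6 and 82.8 FPKM in VEH, a log2 fold change of -0.32 ± 0.064 (limma adjusted p = 0.0364). That call was lost after median-centring (0.0508) and after scaling to the same sum (0.0560), and without each library except CCR3 replicate 4 (up to 0.146). Cycs, cytochrome c itself, measured 58.4, 53.5 and 47.0 FPKM in CCR3 and 55.3, 55.9 and 56.5 FPKM in VEH, with overlapping groups.

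Of 17 enzymes of the citric acid cycle and pyruvate dehydrogenase, 0 passed in either direction, with a median log2 fold change of -0.02. At an unadjusted p under 0.05 limma placed 1 lower and 1 higher. Fh1, fumarase, which uses the fumarate that complex II makes, measured 53.1, 47.2 and 51.0 FPKM in CCR3 and 61.9, 54.4 and 58.1 FPKM in VEH (log2 fold change -0.20, limma adjusted p = 0.158). Cs, citrate synthase, measured 91.8, 95.01 and 87.0 FPKM in CCR3 and 81.6, 83.7 and 80.0 FPKM in VEH (log2 fold change 0.16, limma adjusted p = 0.185). The groups were apart for both genes, in opposite directions.

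Of 9 uncoupling proteins and fuel switches, 7 were tested and 1 was called. Pdk4, the kinase that shuts pyruvate dehydrogenase and so favours fatty acids as fuel, rose from 4.23, 3.86 and 5.42 FPKM in VEH to 14.4, 14.2 and 17.1 FPKM in CCR3. Its log2 fold change was 1.56 ± 0.12 (limma adjusted p = 0.00182), and it passed in every alternative setting run. Ucp2, the most abundant uncoupling protein here, measured 235, 198 and 306 FPKM in CCR3 and 263, 244 and 278 FPKM in VEH, with overlapping groups.

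Of 17 regulators of mitochondrial biogenesis, 14 were tested and 0 passed in either direction, with a median log2 fold change of 0.01; 1 lower and 0 higher had an unadjusted limma p under 0.05. Nrf1, which encodes NRF-1, had a log2 fold change of -0.13 (limma adjusted p = 0.325), Gabpa one of 0.06 and Tfam, a factor that packages and transcribes mitochondrial DNA, one of -0.01. The coactivator Ppargc1a was at 0.13 to 0.27 FPKM and was not tested. Of 78 mitochondrial ribosomal proteins, 71 had a negative log2 fold change, with a median of -0.10, and 1, Mrps6, passed. Mrps6 fell from 19.8 ± 0.63 FPKM (SD, n = 3) in VEH to 16.1 ± 0.46 FPKM in CCR3 (limma adjusted p = 0.0472), and the call was lost under both scalings and without each library except CCR3 replicate 4 (adjusted p up to 0.168).

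Markers of other cell types differed between the same libraries. The summed level of 12 adipocyte markers was 772, 429.7 and 546.5 FPKM in CCR3 and 713, 706 and 861 FPKM in VEH. The median log2 fold change of these markers was -0.57, with 10 negative and 2 positive, Pnpla2 (0.09) and Dgat2 (0.07). Of the 12, 2 passed lower, Pparg (limma adjusted p = 0.0370) and Lep (0.0462). For leukocytes the sum over 14 markers was 4740.7 to 6787.5 FPKM in CCR3 and 5453.4 to 5921.4 FPKM in VEH, and Cd3g (0.0164) and Cd4 (0.0385) of T cells passed lower. Cd3e, also of T cells, did not pass (log2 fold change -0.28, limma adjusted p = 0.286). The median log2 fold change of the 14 was -0.26, with 11 negative and 3 positive. The positive ones were S100a8 (0.25), S100a9 (0.24) and Itgam (0.13). For keratinocytes the sum over 10 markers was 6212.6 to 9731.4 FPKM in CCR3 and 6386.8 to 7366.6 FPKM in VEH, and 0 passed limma; an unadjusted p under 0.05 was reached by 3 that were higher and 0 that were lower. For fibroblasts the sum over 8 markers was 3411.5 to 4147.7 FPKM in CCR3 and 3881.1 to 4418.2 FPKM in VEH, and Pdgfrb (0.0462) passed lower. No marker of these lists was at 0 in all libraries, and the limma calls of Pparg, Lep, Pdgfrb, Cd3g and Cd4 were each lost without some single library (adjusted p up to 0.174). Scaling to the same sum also ended the calls of Pparg (0.0552), Lep (0.0553), Pdgfrb (0.0848) and Cd4 (0.0507), and median-centring that of Lep (0.0597). The adipocyte sum was highest in VEH replicate 4 and lowest in CCR3 replicate 2. The sum of the 4 complex II genes was also highest in VEH replicate 4, at 321.5 FPKM, and lowest in CCR3 replicate 2, at 269 FPKM. Within each group its libraries stood in the same order as the adipocyte sum. Across groups the orders differed. The adipocyte sum of CCR3 replicate 1 (772 FPKM) lay above those of VEH replicates 1 and 2. The complex II sum of that library (285.4 FPKM) lay below every VEH library. The fibroblast sum had the same highest and lowest library. Within each group the order of the fibroblast sum differed from that of complex II only between CCR3 replicates 1 and 4. There complex II was nearly level (285.4 and 284.5 FPKM). Across groups, the fibroblast sum of VEH replicate 2 (3881.1 FPKM) lay below CCR3 replicates 1 (4036.6 FPKM) and 4 (4147.7 FPKM). The complex II sum of VEH replicate 2 (305.7 FPKM) lay above every CCR3 library. These comparisons of order were chosen after the values were seen. The sum of all members was lowest in CCR3 replicate 4. The part of cell composition in the members' levels was not tested.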

How the data were processed

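RNA from whole skin was taken up in Trizol, purified on oligo(dT) beads, primed with random hexamers and sequenced as DNA nanoballs for 50 bases from a single end; these steps are per the labels' protocols. HISAT did the alignment, per the submitters' processing notes. Not given in the sources used here are its version, the build, the annotation and the counting. The authors deposited 1 table of FPKM values, scaled to transcript length and mapped fragments, for 18824 genes. FPKM is relative, so a rise of abundant transcripts lowers all others. Low values were checked for the step of 1 read: 5.3% of 3012 ratios were whole within 0.05. The 10% set as the share by chance assumes evenly spread ratios, and ratios close to 1 were left out. The check therefore cannot decide, and the depth is unknown. In 25 rows a symbol turned into a date was restored through the Entrez number, of which 18766 were found in RefSeq GRCm38.p6.

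Values were transformed to log2(FPKM + 1), a scale that understates changes of low genes. Genes of at least 1 FPKM in 3 libraries were compared in R 4.3.3 by limma 3.58.1 with its variance trend; tests were 2-sided, with Benjamini-Hochberg adjustment at 0.05 over all 13063 genes. No test was run over a list of genes. The value of 1 tested member is not reported here. Named are all members past the threshold, the 3 smallest p-values and the highest level in each complex, the Sdh genes, the isoforms of complex IV and the c ring, the called genes and 2 smallest p-values of each related list, and 6 set genes; not all of those outside the members are printed. The members and lists were chosen with earlier results of these data known. Alternatives were median-centred values, scaling to the same sum, a filter of 3 FPKM or none, a pseudocount of 0.1, no variance trend, a replicate block and each library left out. For CCR3 against VEH, the steps were tested on simulated data with 5 draws of 13063 genes. Changed genes were drawn from those with a VEH mean above 2 on the log2(FPKM + 1) scale. Of genes given a log2 change of 1, 98.4% were recovered, 5.83% of calls were unchanged genes, and 96.3% of the members' intervals held the true value. The simulated noise had limma's own spreads and was independent between genes, so that share does not cover members that move together. Python 3.11.15 and matplotlib 3.10.9 made the tables and plots.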

Additional observations from a re-analysis of the deposited data

How the results depend on the processing

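No member passed limma's threshold in any alternative; the smallest adjusted p was 0.0545, for Cox6b2 without the variance trend, and the number of members with a negative log2 fold change ranged from 70 to 83. The medians of all members and of complexes I, III, IV and V kept their sign and moved by less than the SD between libraries, but some moved by over 1.5 times. Without CCR3 replicate 4 the median was -0.036 for complex V and -0.037 for complex III, beside -0.038 for all genes. Without VEH replicate 4 it was -0.053 for complex I, -0.044 for complex III, -0.062 for complex IV and -0.048 for complex V, beside -0.034 for all genes. Median-centring gave -0.050, -0.044, -0.070 and -0.050 for complexes I, III, IV and V, and scaling to the same sum -0.048, -0.042, -0.068 and -0.048. The median of complex II ran from -0.20 to -0.15 when 1 library was left out. Counts over all genes moved most: scaling to the same sum gave 173 lower, no filter 90 higher and 130 lower, and leaving out 1 library 29 (without VEH replicate 4) to 551 (without CCR3 replicate 4) higher and 39 (without VEH replicate 1) to 1087 (without CCR3 replicate 4) lower. The replicate block gave 89 higher and 144 lower, and 0 members. After each gene's group mean was subtracted, equal replicate numbers correlated across genes at -0.064, 0.084 and -0.03, beside -0.083 to 0.144 for unequal numbers. Such low values cannot exclude that equal numbers share a batch, and no label says whether the numbers pair the libraries. The block ended the calls of Etfb (limma adjusted p = 0.0658) and Cd3g (0.0532), among others. Signs that turned belong to genes near 0. For Cox6a2 the log2 fold change was 0.016 after median-centring, 0.0128 after scaling to the same sum and -0.21 to 0.11 with 1 library left out. For Tfam it was 0.0158, 0.0147 and -0.0791 to 0.0357. With 1 library left out, Cox8b ran from -0.19 to 0.26, Ucp2 from -0.28 to 0.0361, Atp5g1 from -0.10 to 0.0046 and Cycs from -0.15 to 0.0003. The cause of these shifts was not tested. Depth is unknown, so no counting limit can be given, and Cox6b2, near 1 FPKM, is the member for which low values matter most.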
